A study of Mus musculus with 12 samples.

Results

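The S100 proteins, annexins and galectins were followed in the livers of mice carrying an AEG-1 transgene, a c-Myc transgene, both or neither. Members were all genes whose symbol begins with S100 and a letter, Anxa and a digit or Lgals and a digit, and that had at least 1 read in at least 1 library. This gave 36 of the 18170 genes with a read, namely 14 S100, 12 annexin and 10 galectin symbols. Another 4 matching symbols, S100a2, S100a3, S100a5 and S100z, had no read in any library. Of the 36 members, 27 had enough reads to be tested (10 S100, 11 annexins and 6 galectins), and the other 9 are described by their reads. By symbol the set takes in S100pbp, a binding protein of the human S100P protein, and Lgals3bp, a secreted glycoprotein that binds galectin-3, neither of which belongs to the family it is named after.

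S100 proteins are small calcium sensors that change shape on binding calcium and then grip partner proteins, among them annexins, and some are secreted as alarm signals. Annexins bind negatively charged membrane lipids in the presence of calcium and act in membrane repair, vesicle traffic and cell surface proteolysis. Galectins bind sugar chains carrying galactose on glycoproteins, both outside the cell and on damaged endosomes. In liver, hepatocytes make some members of each family, and other members are best known from neutrophils, macrophages, bile duct or stellate cells.

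RNA of whole liver was sequenced from 12 untreated adult mice, 3 per genotype. The groups were wild type (WT), Alb/AEG-1 (AEG1), Alb/c-Myc (MYC) and Alb/AEG-1/c-Myc (AEG1_MYC), all bred by crossing mice heterozygous for one or the other transgene. The Alb promoter, active mainly in hepatocytes, drives both transgenes, and no label gives sex, exact age, litter or sequencing batch. Each library held 21931197 to 40552316 reads in genes, and levels are given as TMM-scaled CPM, the count of a gene per 1e6 of those reads. Myc lay at 2.26 to 4.73 CPM in the WT and AEG1 livers and at 23.4 to 165 CPM in the 6 carriers of the MYC transgene, in accord with the MYC labels, and the AEG1 labels have no such check here. AEG1_MYC replicates 1 and 2 stood apart from the other 10 libraries, with mean correlations of log expression of 0.962 and 0.935 with the rest against 0.974 to 0.978 elsewhere. In whole tissue, fewer cells of a type and less RNA per cell cannot be told apart.

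The promoters below were chosen from the members described here and are printed as the 250 bases before the RefSeq transcription start (GRCm38.p6, 5′ to 3′ on the gene's strand). Capitals mark 3 short motifs searched on both strands: CACGTG, the E-box letters bound by MYC with its partner MAX, TGANTCA, the letters bound by AP-1, and TTGCNNAA, the core letters bound by C/EBP factors, with no overlap between them in the windows shown. Anxa2 (chr9:69453433-69453682, plus strand), S100a11 (chr3:93520246-93520495, plus strand) and Anxa7 (chr14:20479942-20480191, minus strand) are shown because their AEG1_MYC and WT livers did not overlap and their window holds one of these motifs. The windows of Lgals3, Anxa8, Anxa9 and S100a13, other members with groups that did not overlap, hold none of the 3 motifs and are not shown. Of the 2 starts that RefSeq gives for Anxa7, the one shown was chosen because its window holds CACGTG. S100a8 (chr3:90668821-90669070, plus strand) and S100a9 (chr3:90695722-90695971, minus strand) are neighbours that were high together in 1 liver.

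Anxa2: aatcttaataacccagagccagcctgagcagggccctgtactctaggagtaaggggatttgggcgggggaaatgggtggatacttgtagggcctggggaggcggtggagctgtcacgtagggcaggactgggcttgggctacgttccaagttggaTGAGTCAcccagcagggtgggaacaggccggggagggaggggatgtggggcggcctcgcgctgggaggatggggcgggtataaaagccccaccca
S100a11: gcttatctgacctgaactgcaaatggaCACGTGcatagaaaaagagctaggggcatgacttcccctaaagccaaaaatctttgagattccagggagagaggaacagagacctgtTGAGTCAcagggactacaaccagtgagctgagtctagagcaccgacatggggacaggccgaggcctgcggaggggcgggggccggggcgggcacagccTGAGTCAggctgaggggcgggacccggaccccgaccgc
Anxa7: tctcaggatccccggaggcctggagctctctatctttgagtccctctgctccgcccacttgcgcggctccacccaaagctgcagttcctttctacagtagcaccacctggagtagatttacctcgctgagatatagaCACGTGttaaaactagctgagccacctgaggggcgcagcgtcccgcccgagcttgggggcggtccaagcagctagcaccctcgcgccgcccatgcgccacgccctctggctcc
S100a8: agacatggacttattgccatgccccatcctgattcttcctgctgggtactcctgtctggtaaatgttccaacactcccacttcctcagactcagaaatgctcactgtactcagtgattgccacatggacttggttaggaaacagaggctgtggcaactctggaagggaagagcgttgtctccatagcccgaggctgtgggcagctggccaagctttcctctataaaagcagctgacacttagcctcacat
S100a9: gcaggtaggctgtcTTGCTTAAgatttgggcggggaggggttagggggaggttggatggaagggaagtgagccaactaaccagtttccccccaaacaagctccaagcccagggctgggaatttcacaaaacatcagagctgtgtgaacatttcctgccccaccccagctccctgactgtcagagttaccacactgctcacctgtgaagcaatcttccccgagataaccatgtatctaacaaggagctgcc

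CACGTG stood 113 bases before the Anxa7 start and 223 bases before the S100a11 start. TGANTCA stood 95 bases before the Anxa2 start and both 136 and 38 bases before the S100a11 start. TTGCNNAA stood 236 bases before the S100a9 start. Of the 28 members with a promoter entry, 2 held CACGTG (7.14%, against 6.86% of all 27025 genes), 4 held TGANTCA (14.3% against 7.82%) and 5 held TTGCNNAA (17.9% against 10.8%). These matches are letters in a window and say nothing of binding in these livers.

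Per base of exon, the galectin Lgals9 was the most abundant member in WT liver, at 393 ± 61.3 reads per kilobase of exon, scaled like CPM (RPKM; SD, n = 3). S100a10 followed at 152 ± 19.2 RPKM, S100a1 at 107 ± 6.19 RPKM and Lgals8 at 88.5 ± 9.80 RPKM. S100a1 and Lgals8 are neighbours in this order and their ranges (100.2 to 112 and 78.9 to 98.5 RPKM) lay close but apart. The most abundant annexins were Anxa5 (46.7 ± 2.51 RPKM), Anxa6 (46.3 ± 10.3 RPKM) and Anxa7 (41.2 ± 1.11 RPKM). Anxa5 and Anxa6 did not differ beyond their spread, nor did Anxa6 and Anxa7, while the ranges of Anxa5 (44.8 to 49.5 RPKM) and Anxa7 (40.4 to 42.5 RPKM) lay apart. Lgals3 and S100a11, at 2.88 and 2.09 RPKM, were far lower in WT liver.

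No member passed the adjusted threshold of 0.05 in any of the 6 comparisons of edgeR's quasi-likelihood test, fitted on all 12 libraries and adjusted over the 13684 genes tested. The same test called 0% of all genes in AEG1 versus WT and 0% in MYC versus WT. It called 0.263% of them in AEG1_MYC versus WT, 0.322% in AEG1_MYC versus AEG1, 0.205% in AEG1_MYC versus MYC and 0.0219% for the interaction, which asks whether AEG1 had another effect with MYC than without it. limma also called no member, with 0% of all genes called in AEG1 versus WT, 0% in MYC versus WT, 0.168% in AEG1_MYC versus WT, 0.424% in AEG1_MYC versus AEG1, 0.175% in AEG1_MYC versus MYC and 0.0365% for the interaction. DESeq2 called 7 of 28 members in AEG1_MYC versus WT (4.37% of all genes), 6 of 28 in AEG1_MYC versus AEG1 (5%), 3 of 28 in AEG1_MYC versus MYC (3.05%) and 2 of 27 for the interaction (1.06%). In the single transgenics DESeq2 called none of 35 members, with 0.0828% of all genes called in AEG1 versus WT and 0.121% in MYC versus WT. The 7 members from the comparison with WT were Anxa2, Anxa7, Anxa9, Lgals1, Lgals3 and S100a11, all higher in AEG1_MYC, and S100a10, lower. The 6 against AEG1 were Anxa2, Anxa7, Anxa9, Lgals4, S100a10 and S100a9, and the 3 against MYC were Anxa2, Anxa7 and S100a10. For the interaction the 2 were Anxa7 and Lgals4, both with a positive estimate.

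At an unadjusted p under 0.05, edgeR marked 11 of the 27 members in AEG1_MYC versus WT, 8 higher and 3 lower, where it marked 17.2% of all genes. The corresponding counts were 12 members in AEG1_MYC versus AEG1 (17.4% of all genes), 9 in AEG1_MYC versus MYC (15.2%) and 5 for the interaction (9.25%). In AEG1 versus WT there were 2, Lgals1 and Lgals4 (3.92% of all genes), and in MYC versus WT there was 1, Lgals1 (3.47%). With libraries left out, the count against WT was 11 of 29 without AEG1_MYC replicate 1 (17.9% of all genes), 10 of 29 without replicate 2 (11.8%), 17 of 29 without replicate 3 (24.5%) and 4 of 30 without replicates 1 and 2 together (5.83%). The 4 were Anxa2, higher, and Anxa8, S100a10 and S100a13, lower.

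Leaving out AEG1_MYC replicate 3 changed the adjusted calls. Without it edgeR called 8 members against WT (4.95% of all genes), the 7 that DESeq2 called and Lgals9, which was lower. It then called 5 against AEG1 (4.54%), namely Anxa7, Anxa9, S100a10, S100a11 and S100a9, and 3 against MYC (3.24%), namely Anxa7, Lgals9 and S100a10. The median log2 fold change of the 27 members in AEG1_MYC versus WT was 0.19, with 17 above 0, against a median of 0.01 over all genes, 51.6% of which were above 0. It was 0.01 without WT replicate 1 and 0.02 without AEG1_MYC replicates 1 and 2 together. By family that median was 0.28 for the S100 members, 0.43 for the annexins and -0.06 for the galectins. In AEG1 versus WT and MYC versus WT it was -0.04 and -0.06 over the members, and -0.00 over all genes in both.

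**Figure D1:**
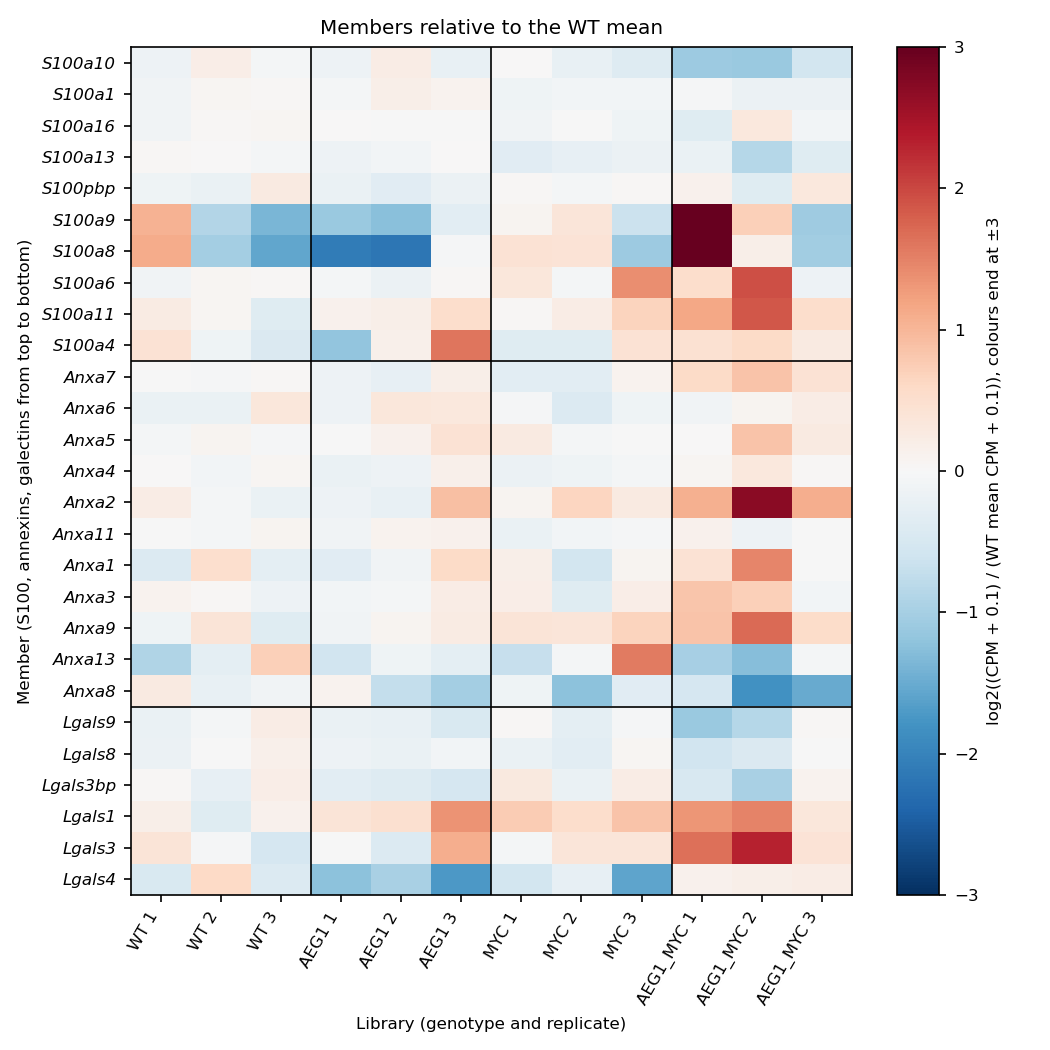
Level of the 27 tested members (rows) in each of the 12 libraries (columns), as log2 of CPM plus 0.1 over the WT mean plus 0.1, with colours ending at ±3. S100a8 and S100a9 are past the end of the scale in AEG1_MYC replicate 1, Anxa2 and Lgals3 are highest in AEG1_MYC replicate 2, and S100a10 is below the WT mean in all 3 AEG1_MYC livers.

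**Figure D2:**
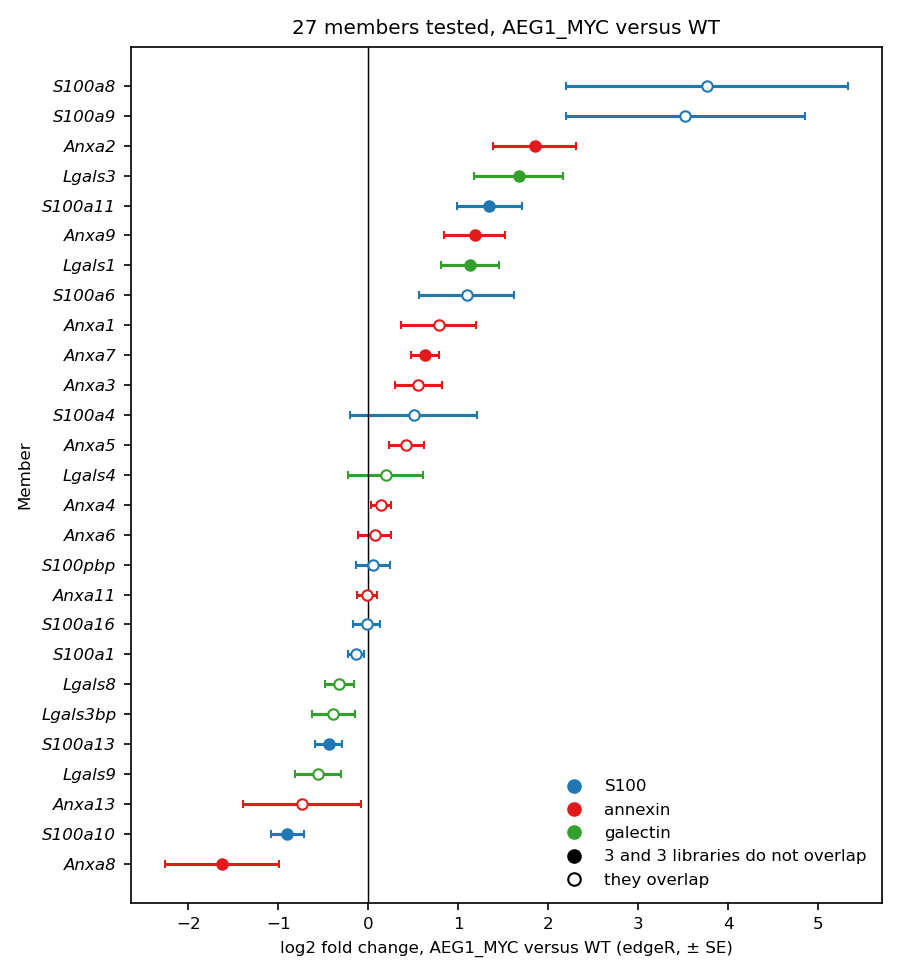
edgeR log2 fold change of each tested member in AEG1_MYC versus WT (points) with its SE (bars), coloured by family and filled where the 3 and 3 libraries do not overlap. The filled points are the 6 members higher in every AEG1_MYC liver than in every WT liver and the 3 lower, while S100a8 and S100a9 have the largest estimates and the widest errors.

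S100a10, also called p11, is an S100 protein that has lost calcium binding and exists mostly in a complex with annexin A2. It measured 109, 139 and 116 CPM in the WT livers, 109, 141 and 105 in AEG1, 122, 104 and 92.997 in MYC, and 56.6, 55.8 and 83.2 in AEG1_MYC. All 3 AEG1_MYC livers were below all 9 others. The mean was 65.2 ± 15.6 CPM (SD, n = 3) in AEG1_MYC against 122 ± 15.4 in WT, a log2 fold change of -0.90 ± 0.18 (SE; edgeR, adjusted p = 0.0902). Against AEG1 the log2 fold change was -0.86 ± 0.18, and against MYC it was -0.70 ± 0.18. In the single transgenics the estimates were -0.04 (95% interval -0.40 to 0.32) for AEG1 and -0.20 (-0.55 to 0.16) for MYC. The 95% intervals here and below come from the SE by a normal approximation, so they are narrower than the test itself would give.

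Anxa2, the annexin that pairs with S100a10 at the membrane, differed with the opposite sign. Its levels were 15.5, 12.8 and 11.6 CPM in WT, 11.99, 11.5 and 25.0 in AEG1, 14.2, 20.9 and 16.1 in MYC, and 28.1, 87.9 and 28.2 in AEG1_MYC. Every AEG1_MYC liver lay above the other 9, with replicate 2 far above the other two and AEG1 replicate 3 next below them. The log2 fold change against WT was 1.85 ± 0.46 (edgeR, adjusted p = 0.122) and was 1.08 without AEG1_MYC replicate 2. Per base of exon, Anxa2 amounted to 0.0512 to 0.0785 of S100a10 in WT, 0.0450 to 0.132 in AEG1, 0.0646 to 0.112 in MYC, and 0.276, 0.873 and 0.188 in AEG1_MYC. The ratio was thus higher in each AEG1_MYC liver than in any other, and S100a10 was the more abundant of the pair in all 12.

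**Figure D3:**
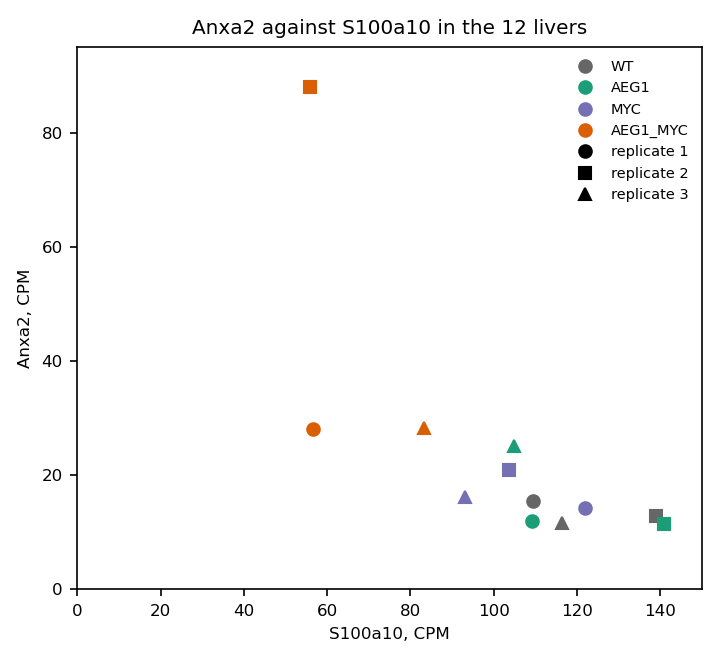
Anxa2 (vertical axis, CPM) against S100a10 (horizontal axis, CPM) in the 12 livers, coloured by genotype and shaped by replicate. The 3 AEG1_MYC livers lie left of and above all others, at 55.8 to 83.2 CPM of S100a10 and 28.1 to 87.9 CPM of Anxa2.

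S100a11, which binds annexin A1 and is the next gene to S100a10 on chromosome 3, was a low transcript. It measured 1.28, 1.11 and 0.811 CPM in WT, 1.17, 1.21 and 1.58 in AEG1, 1.10, 1.25 and 1.77 in MYC, and 2.51, 4.12 and 1.57 in AEG1_MYC. The AEG1_MYC livers were all above WT, but replicate 3 overlapped with the single transgenics. Against WT its log2 fold change was 1.35 ± 0.36 (edgeR, adjusted p = 0.136). The adjacent S100a10 thus differed from it in direction. All 11 members named S100a and a number lie on chromosome 3.

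S100a8 and S100a9 form calprotectin, the main cytosolic protein of neutrophils, which is released as an alarm signal and binds zinc and manganese. S100a8 measured 1.34, 0.230 and 0.128 CPM in WT, 0.0558, 0.0485 and 0.552 in AEG1, 0.794, 0.780 and 0.211 in MYC, and 23.4, 0.652 and 0.225 in AEG1_MYC. S100a9 measured 1.59, 0.344 and 0.213 CPM in WT, 0.279, 0.243 and 0.552 in AEG1, 0.760, 0.947 and 0.422 in MYC, and 24.1, 1.24 and 0.289 in AEG1_MYC. A single liver, AEG1_MYC replicate 1, held 708 reads of S100a8 and 729 of S100a9, and AEG1_MYC otherwise overlapped WT. Against WT the log2 fold changes were 3.77 ± 1.56 and 3.53 ± 1.33 (edgeR, adjusted p = 0.256 and 0.219), without that liver they were -0.40 and 0.08, and without WT replicate 1, the highest of the WT livers, they were 5.46 and 4.91.

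In the same liver the summed level of 13 neutrophil and granulocyte markers was 1262 CPM, against 6.06 to 23.7 CPM in the other 11. Lcn2, which hepatocytes also secrete in the acute phase response, made up 1210 CPM of that sum. Itgam, an integrin of neutrophils and macrophages, was at 8.09 CPM there and at 0.513 to 2.28 elsewhere, and the granule protease gene Prtn3 was at 7.13 CPM and at 0 to 1.92 elsewhere. Ngp, Ltf and Mpo, genes of neutrophil granules named after their values were seen, were at 9.61, 6.74 and 4.29 CPM there, and none exceeded 0.488 CPM in another library. The sum of 18 macrophage and Kupffer cell markers was also highest there, at 1419 CPM against 290.2 to 830 (Ptprc 41.0 CPM against 8.92 to 29.4, Emr1 55.1 against 8.65 to 42.5, Clec4f 260.3 against 30.2 to 183). The part of these cells in the S100a8 and S100a9 values was not tested.

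**Figure D4:**
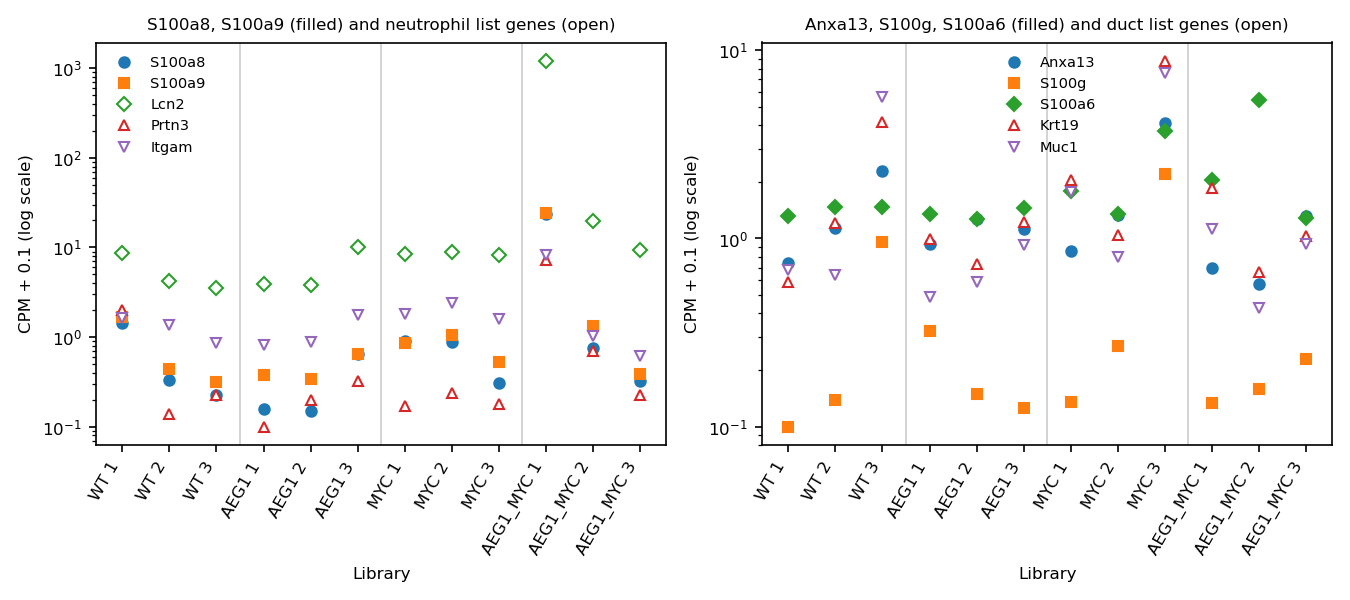
Level in each of the 12 libraries (horizontal axis) as CPM plus 0.1 on a log scale, for S100a8 and S100a9 with 3 neutrophil list genes (left) and for Anxa13, S100g and S100a6 with 2 duct list genes (right); members are filled and markers open. S100a8 and S100a9 peak in AEG1_MYC replicate 1 together with Lcn2, Prtn3 and Itgam, and Anxa13 and S100g peak in MYC replicate 3 together with Krt19 and Muc1.

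Among the other S100 members, S100a13, which aids the release of the growth factor FGF1, was lower with both transgenes. It measured 17.7, 17.3 and 16.7 CPM in WT, 15.4, 16.2 and 17.3 in AEG1, 13.6, 14.5 and 15.1 in MYC, and 15.1, 9.54 and 13.5 in AEG1_MYC. All MYC and all AEG1_MYC livers lay below all WT livers, with log2 fold changes of -0.26 ± 0.15 and -0.44 ± 0.15 (edgeR, adjusted p = 0.999 and 0.188). Both comparisons share the WT samples.

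S100a6, or calcyclin, was at 1.22, 1.38 and 1.37 CPM in WT, 1.25, 1.16 and 1.36 in AEG1, 1.69, 1.25 and 3.61 in MYC, and 1.95, 5.33 and 1.19 in AEG1_MYC. It was high in AEG1_MYC replicate 2 and MYC replicate 3, and low in AEG1_MYC replicate 3, so the groups overlapped. S100a1, a calcium sensor best known from heart muscle, stayed between 65.4 and 83.4 CPM. Its values were 69.5, 77.8 and 75.7 in WT, 71.1, 83.4 and 80.5 in AEG1, 68.2, 70.7 and 70.1 in MYC, and 72.5, 65.7 and 65.4 in AEG1_MYC. All 4 genotypes gave close means for S100a16, at 20.8, 23.2 and 23.4 CPM in WT, 22.5, 22.3 and 22.2 in AEG1, 21.0, 22.5 and 20.5 in MYC, and 17.4, 27.8 and 21.4 in AEG1_MYC. The log2 fold changes in AEG1_MYC versus WT were -0.13 (95% interval -0.30 to 0.04) for S100a1 and -0.02 (-0.30 to 0.27) for S100a16. S100pbp lay between 6.46 and 10.5 CPM and S100a4, a marker of fibroblasts and other motile cells, between 0.112 and 1.38 CPM, each with overlapping groups. In the current annotation 302 of the 498 exon bases of S100a4 overlap another gene, so its reads are uncertain.

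Of the annexins, 8 of 11 had a positive estimate in AEG1_MYC versus WT. Summed over the 12 annexins, the level was 410.2, 413 and 461 CPM in WT, 391, 438 and 523 in AEG1, 412, 371 and 432 in MYC, and 507, 703 and 523 in AEG1_MYC. Only AEG1 replicate 3 reached into the AEG1_MYC range. Summed S100 members stood at 231 to 268 CPM in WT and 229 to 273 CPM in AEG1. They stood at 217 to 238 CPM in MYC and 177 to 223 CPM in AEG1_MYC. The galectins stood at 939 to 1206 CPM in WT and 848 to 923 CPM in AEG1. Their sum was 870 to 1077 CPM in MYC and 613 to 1070 CPM in AEG1_MYC (the last in replicate 3). Sums are ruled by their most abundant members.

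Anxa7, a widely expressed annexin also known as synexin that promotes membrane fusion, was higher with both transgenes. Its levels were 124, 123 and 129 CPM in WT, 112, 105 and 141 in AEG1, 101, 101 and 135 in MYC, and 187, 225 and 169 in AEG1_MYC. Each AEG1_MYC liver was above each of the other 9. It differed by 0.63 ± 0.16 on the log2 scale against WT, 0.70 ± 0.16 against AEG1 and 0.78 ± 0.16 against MYC (edgeR, adjusted p = 0.122, 0.0907 and 0.0929). The estimates for the single transgenics were -0.07 (95% interval -0.37 to 0.24) for AEG1 and -0.15 (-0.46 to 0.16) for MYC, and the interaction was 0.85 ± 0.22 (edgeR, adjusted p = 0.360).

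Anxa9, a low transcript, measured 1.13, 1.65 and 0.939 CPM in WT, 1.14, 1.31 and 1.48 in AEG1, 1.66, 1.62 and 2.03 in MYC, and 2.31, 4.27 and 1.86 in AEG1_MYC. The AEG1_MYC livers exceeded all WT and AEG1 livers and overlapped MYC. Its log2 fold change against WT was 1.18 ± 0.34 (edgeR, adjusted p = 0.148) and was 0.75 without AEG1_MYC replicate 2. At still lower levels, Anxa8 was at 0.579, 0.383 and 0.427 CPM in WT, 0.502, 0.243 and 0.176 in AEG1, 0.414, 0.139 and 0.342 in MYC, and 0.297, 0.0592 and 0.0963 in AEG1_MYC. AEG1_MYC was below WT without overlap, on 9, 2 and 3 reads, with a log2 fold change of -1.62 ± 0.64 (edgeR, adjusted p = 0.232) and of -2.52 without AEG1_MYC replicate 1.

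Anxa5, which binds phosphatidylserine exposed on dying cells, measured 77.5, 85.7 and 79.1 CPM in WT, 80.1, 87.8 and 109 in AEG1, 97.9, 77.2 and 79.9 in MYC, and 81.9, 146 and 97.1 in AEG1_MYC. It was high in AEG1_MYC replicate 2, and the groups overlapped. Anxa6, an annexin with a doubled core, was at 101, 100.2 and 145 CPM in WT, 104, 145 and 143 in AEG1, 113, 87.2 and 106 in MYC, and 107, 123 and 134 in AEG1_MYC. High and low values occurred in WT itself, and no group stood out. Anxa4, an annexin of secretory epithelia, was at 63.7, 59.3 and 65.2 CPM in WT, 55.0, 56.7 and 69.9 in AEG1, 55.9, 57.6 and 59.9 in MYC, and 65.4, 78.1 and 64.5 in AEG1_MYC. Its AEG1_MYC livers were above the MYC livers (log2 fold change 0.26 ± 0.11, edgeR, adjusted p = 0.304) but not above all WT livers. For Anxa11, a partner of the calcium sensor Pdcd6, the values were 18.8, 18.1 and 20.1 CPM in WT, 17.7, 20.5 and 20.6 in AEG1, 16.4, 18.1 and 18.6 in MYC, and 20.6, 17.0 and 18.8 in AEG1_MYC. No group stood apart, with a 95% interval of the log2 fold change against WT of -0.23 to 0.20. Anxa4, Anxa9 and Anxa11 share some exon bases with genes on the opposite strand.

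Anxa1, the ligand of formyl peptide receptors through which glucocorticoids dampen inflammation, ranged from 3.62 to 8.08 CPM in 11 livers and reached 15.1 CPM in AEG1_MYC replicate 2. Anxa3 ranged from 2.81 to 6.64 CPM, with its 2 highest values in AEG1_MYC replicates 1 and 2. Anxa13, an annexin of gut and other epithelia, ranged from 0.474 to 4.00 CPM, and its 2 highest values were in MYC replicate 3 and WT replicate 3 (2.18 CPM).

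In both of these livers, several markers of bile duct and smooth muscle were high. Krt19, a keratin of bile duct cells, was at 8.69 CPM in MYC replicate 3 and 4.06 in WT replicate 3 against 0.488 to 1.93 elsewhere, and Muc1 was at 7.48 and 5.55 against 0.326 to 1.66. Epcam was at 3.79 and 2.09 CPM there and at 0.640 to 2.06 elsewhere, and Acta2, the smooth muscle actin gene, at 34.3 and 13.8 against 1.94 to 13.4. The summed level of all 12 duct markers did not set these livers apart (94.02 and 80.2 CPM, in a range of 42.3 to 107). S100g, or calbindin-D9k, an epithelial calcium carrier that was too low to test, had 80 of its 125 reads in MYC replicate 3 and 20 in WT replicate 3, and Lgals2 had 30 and 10 of its 73. Lgals2 shares exon bases with a gene on the opposite strand, so its reads are uncertain. The part of duct or muscle tissue in these values was not tested.

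Lgals1, a galectin of mesenchymal and immune cells that acts as a pair of identical subunits, had higher levels in every transgenic group. It measured 12.6, 8.65 and 12.3 CPM in WT, 14.6, 15.7 and 28.4 in AEG1, 19.0, 16.3 and 20.3 in MYC, and 28.2, 31.4 and 14.1 in AEG1_MYC. All 9 transgenic livers were above all WT livers, while the 3 transgenic groups overlapped each other. The log2 fold change against WT was 0.81 ± 0.32 for AEG1, 0.73 ± 0.32 for MYC and 1.14 ± 0.32 for AEG1_MYC (edgeR, adjusted p = 0.9997, 0.999 and 0.148). These 3 comparisons use the same 3 WT livers, and WT replicate 2 was the lowest of the 12.

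Lgals3, the galectin with a collagen-like tail that macrophages make in quantity, was at 6.04, 4.48 and 3.20 CPM in WT, 4.57, 3.40 and 9.84 in AEG1, 4.35, 5.91 and 5.93 in MYC, and 14.6, 23.2 and 6.07 in AEG1_MYC. AEG1_MYC replicates 1 and 2 were above all other livers, while replicate 3 was only just above the highest WT liver and below AEG1 replicate 3. Its estimate in AEG1_MYC versus WT was a log2 fold change of 1.67 ± 0.50 (edgeR, adjusted p = 0.163), 1.17 without AEG1_MYC replicate 2 and 0.41 without replicates 1 and 2. The macrophage sum given above was highest in AEG1_MYC replicate 1 and, at 311 CPM in replicate 2, within the range of the other libraries. The list was not of 1 pattern in replicate 2, which had the lowest level of all 12 livers for Clec4f (30.2 CPM), Cd5l (47.0 CPM), Csf1r (22.9 CPM), Vsig4 (7.17 CPM) and Timd4 (0.444 CPM). Gpnmb and Trem2, genes of lipid-handling macrophages, were highest in replicate 2, at 14.0 and 3.61 CPM against 0.342 to 4.43 and 0.299 to 1.28 elsewhere. Vim, the intermediate filament gene of mesenchymal cells, was also highest there, at 48.9 CPM against 13.5 to 34.2. The part of these cells in the Lgals3 values was not tested.

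Lgals9, a ligand of the T cell receptor Havcr2 and the most abundant member, measured 548, 612 and 742 CPM in WT, 556, 546 and 465 in AEG1, 651, 519.8 and 622 in MYC, and 294, 353 and 645 in AEG1_MYC. Replicates 1 and 2 of AEG1_MYC were the 2 lowest of the 12 livers, and replicate 3 was within the WT range. In AEG1_MYC versus WT its log2 fold change was -0.56 ± 0.26 (edgeR, adjusted p = 0.299). Lgals8, which marks damaged endosomes for removal, was at 241, 269 and 301 CPM in WT, 245, 237 and 255 in AEG1, 235, 216 and 280.4 in MYC, and 183, 201 and 267 in AEG1_MYC. It showed the same order, with AEG1_MYC replicates 1 and 2 lowest and replicate 3 among WT, and a log2 fold change of -0.32 ± 0.16 (edgeR, adjusted p = 0.325).

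Lgals3bp was at 129.5, 107 and 145 CPM in WT, 102, 97.2 and 89.4 in AEG1, 155, 111 and 147 in MYC, and 91.0, 65.0 and 136 in AEG1_MYC. The AEG1 livers were all below the WT livers (log2 fold change -0.40 ± 0.24, edgeR, adjusted p = 0.9997), and AEG1_MYC replicate 3 again lay within the WT range.

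Lgals4, a galectin of gut epithelium, was at 1.16, 2.53 and 1.20 CPM in WT, 0.641, 0.776 and 0.427 in AEG1, 1.07, 1.37 and 0.474 in MYC, and 1.78, 1.87 and 1.93 in AEG1_MYC, on 16 to 66 reads a library. All AEG1 livers were below all WT livers, and all AEG1_MYC livers were above all AEG1 and MYC livers but within the WT range. The log2 fold change was -1.42 ± 0.44 in AEG1 versus WT and 1.61 ± 0.44 in AEG1_MYC versus AEG1, and the interaction was 2.36 ± 0.61 (edgeR, adjusted p = 0.9997, 0.124 and 0.360). Lgals6 is a near-identical copy of Lgals4, so reads may have been split between them or dropped, and the values of both are uncertain.

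Groups that did not overlap, 3 livers against 3, can be counted without a model. Of the 27 members, 6 were higher in every AEG1_MYC liver than in every WT liver (9.79% of all genes) and 3 were lower (9.66%). The 6 were Anxa2, Anxa7, Anxa9, Lgals1, Lgals3 and S100a11, and the 3 were Anxa8, S100a10 and S100a13. Against AEG1 6 members did not overlap (17.8% of all genes), and against MYC 6 did not (18.5%). Against WT the count was 3 for AEG1 (10.7%), namely Lgals1, Lgals3bp and Lgals4, and 2 for MYC (11.6%), namely Lgals1 and S100a13.

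**Figure D5:**
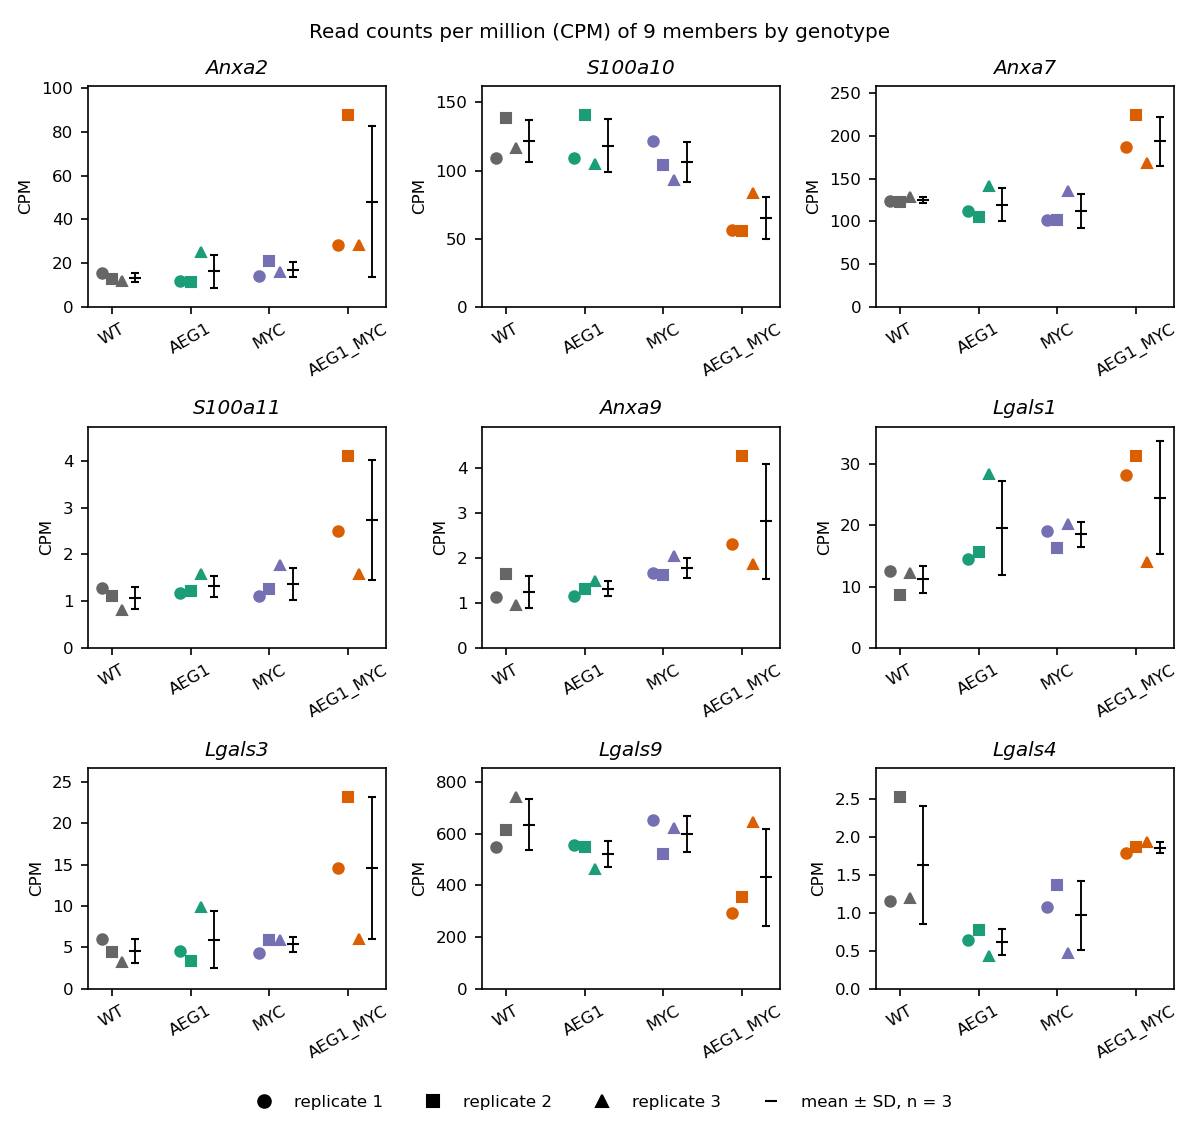
CPM of 9 members in the 12 livers by genotype, with a symbol for each replicate and the mean and SD of each group (n = 3) in black; every vertical axis starts at 0. Anxa2, S100a10 and Anxa7 separate AEG1_MYC from all 9 other livers, Lgals1 separates WT from the 9 transgenic livers, and Lgals9 is lowest in AEG1_MYC replicates 1 and 2.

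AEG1_MYC replicate 2 held the highest level of 11 of the 25 members with a mean of at least 1 CPM (44.0%), where it held the highest level of 23.1% of 12083 such genes. The 11 were Anxa1, Anxa2, Anxa4, Anxa5, Anxa7, Anxa9, Lgals1, Lgals3, S100a6, S100a11 and S100a16. 

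Of 24 partner and receptor genes of the 3 families, 22 could be tested, and 14 of them had a positive log2 fold change in AEG1_MYC versus WT (median 0.15 against 0.01 over all genes). A single one was called, upward, and none downward, where 0.263% of all genes were called. This was Plat, tissue plasminogen activator, which binds the annexin A2 and S100a10 complex on cell surfaces. Plat was at 0.457, 0.727 and 0.342 CPM in WT, 0.864, 0.582 and 1.05 in AEG1, 1.52, 0.836 and 0.711 in MYC, and 19.6, 4.95 and 5.58 in AEG1_MYC. All 3 AEG1_MYC livers were above the other 9, and the log2 fold change of 4.29 ± 0.61 passed the test (edgeR, adjusted p = 0.0241). Plg, the plasminogen that Plat activates, was at 3377 to 3498 CPM in WT and 2267 to 3025 in AEG1_MYC (log2 fold change -0.32 ± 0.16, edgeR, adjusted p = 0.344). Pef1, a relative of the annexin partner Sri, had a log2 fold change of -0.34 ± 0.12, Bsg, a receptor of S100a9, 0.53 ± 0.21, and Tlr4, which senses calprotectin, 0.62 ± 0.30 (edgeR, adjusted p = 0.193, 0.227 and 0.313). Tlr4 was at 4.72, 2.25 and 2.37 CPM in AEG1_MYC, 1.68 to 2.41 in WT and 3.15 to 3.74 in AEG1. Only AEG1_MYC replicate 1 was thus above the WT range in its group. Ager, the RAGE receptor of several S100 proteins, was too low to test, with 65 reads over all libraries.

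Markers of further cell types were summed in the same way. The summed endothelial markers spanned 314 to 405 CPM in WT, 398 to 445 in AEG1, 341 to 392 in MYC and 329 to 393 in AEG1_MYC. In AEG1_MYC versus WT 5 of the 10 had a positive log2 fold change. Estimates ran from Lyve1 (1.47) and Pecam1 (0.55) to Tek (-0.40) and Vwf (-0.57). Stellate cell and fibroblast markers summed to 447 to 603 CPM in AEG1 and 371 to 461 in MYC. They summed to 342 to 439 CPM in WT and 308 to 347 in AEG1_MYC, with 6 of 13 positive in AEG1_MYC versus WT. The log2 fold changes were 2.04 for Col1a1 and 0.94 for Vim, and -0.82 for Reln, -0.70 for Dcn and -0.48 for Des. Col1a1 was at 1.83 to 4.67 CPM in WT and at 2.74, 31.5 and 7.38 in AEG1_MYC. Its highest value was thus in replicate 2, and replicate 1 lay within the WT range. No marker of either list passed edgeR's adjusted threshold. B, T and NK cell markers summed to 3.66 to 13.2 CPM over all livers. The highest was AEG1 replicate 3, which also had the highest endothelial (445 CPM) and stellate cell and fibroblast (603 CPM) sums of all livers. Whether these sums bear on the members' levels in that liver was not tested. The 8 hepatocyte markers summed to 106907 to 114207 CPM in WT and 55849, 35016 and 75674 in AEG1_MYC. They summed to 83840 to 91721 CPM in AEG1 and 70764 to 87704 in MYC. Every transgenic liver was thus below every WT liver, and AEG1_MYC replicate 3 lay within the MYC range. Alb made up most of that sum, at 83473 to 92814 CPM in WT and 39718, 24127 and 55918 in AEG1_MYC. Its level was 62860 to 72864 CPM in AEG1 and 53103 to 69953 in MYC. The hepatocyte sum was lowest in AEG1_MYC replicate 2. That liver held the highest level of 11 of the 25 members and of 23.1% of the 12083 genes with a mean of at least 1 CPM. All 8 markers had a negative log2 fold change in AEG1 versus WT and in MYC versus WT. In AEG1_MYC versus WT 7 of them did, but not all were low in AEG1_MYC replicate 2. Hnf4a (749 CPM) and Apoa1 (5700.5 CPM) lay there within their WT ranges, while Cps1 (175 CPM) and Serpina1a (20.4 CPM) were far below theirs. Whether the hepatocyte sum bears on the members' levels was not tested.

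The other 7 members had too few reads to test, besides S100g and Lgals2. S100b had 26 reads over all 12 libraries, 15 of them in MYC replicate 3, S100a14 had 24, Lgals6 had 22, Lgals12 had 6 and Anxa10 had 4. S100a7a and Lgals7, both of stratified epithelium, had 1 read each. For a matching symbol with no read in any library, such as S100a2, the 375247916 reads allow a level of up to 0.00799 CPM (3 reads, counting error only).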

How the data were processed

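For each of the 12 libraries the deposited file lists genes with their unnormalized read counts. Reads were handled with CASAVA 1.8.2, TopHat2 2.0.7 and HTSeq on mm9, per the submitters' processing notes, and the strand setting and annotation are not given in the sources used here. The 5 summary lines of each table (reads in no gene, ambiguous or not unique) were left out. Reads in no gene were 11.5 to 15.5% of the reads in genes, in no gene or ambiguous. The line for alignments that were not unique, outside that share, held 46.5 to 58.0% of the whole count of a library. The labels name the mice individually, and the smallest chi-square per degree of freedom between replicates was 35.8, so no library was a repeat.

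Counts were fitted with edgeR 4.0.16 in R 4.3.3 (TMM, filterByExpr, robust quasi-likelihood, all 4 groups sharing 1 spread, Benjamini-Hochberg over 13684 genes), and the fit was tested on simulated data. DESeq2 1.42.0, limma 3.58.1, other scalings and filters, and left-out libraries were alternatives. Lengths are GENCODE M21 exon unions, and promoters and gene order are RefSeq's (GRCm38.p6). Members called, among the 12 highest or with an unadjusted p under 0.05 get every value; up to 4 genes of each marker list and 8 set markers are named, of which Ly6g was not used here. Acta2, Plg, Ager, Ngp, Ltf, Mpo, Cd5l, Csf1r, Vsig4 and Timd4 were named after their values were seen. Members and lists were chosen with earlier results of these data known.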

Additional observations from a re-analysis of the deposited data

How the results depend on the processing

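The number of members called at an adjusted p under 0.05 was 0 in every comparison under RLE scaling, no filter, a filter of 1 CPM in 3 libraries, no robust step and limma, and in the 5 comparisons of 2 groups also under a fit of the compared groups alone, which was not run for the interaction. DESeq2 gave 7 in AEG1_MYC versus WT, 6 in AEG1_MYC versus AEG1, 3 in AEG1_MYC versus MYC and 2 for the interaction. Leaving out each library in turn gave 0 to 8, 0 to 5 and 0 to 3 in those first 3 comparisons, with every call made without AEG1_MYC replicate 3; the cause was not tested. The unadjusted count in AEG1_MYC versus WT, 11, was recomputed without AEG1_MYC libraries after the data were seen: 10 to 17 with 1 left out and 4 without replicates 1 and 2. The log2 fold change of S100a8 reversed to -0.40 without AEG1_MYC replicate 1 and to -1.37 without replicates 1 and 2, and that of S100a9 to -1.33 without both; with 1 library left out, S100a8 spanned -0.40 to 5.46. The other 9 members with a low p kept their sign in all alternatives run. No paired analysis was possible because the replicate numbers only name the mice in accession order. Low members such as Anxa8, on 2 to 19 reads a library, are limited by depth.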
